A study of Homo sapiens with 27 samples.

Results

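The genes described are 10 that act on RNA bound by an antisense oligonucleotide or that bind such oligonucleotides in the nucleus. They were taken by name, without use of their values, and all 10 were found among the 60619 gene identifiers of each count table. They are RNASEH1, RNASEH2A, RNASEH2B and RNASEH2C for RNases H, XRN1 and XRN2 for 5′ to 3′ exonucleases, SFPQ, NONO and PSPC1 for paraspeckle proteins, and SSB for the La protein. All 10 passed the filter on low counts in every comparison. RNA was sequenced from 27 samples of REH, a human cell line derived from a B-cell precursor leukemia that carries the ETV6/RUNX1 fusion gene, at 72 h. The cells had medium alone (2 samples), a non-targeting GapmeR called NTC (3 samples), or 1 of 8 GapmeRs at 10 µM against a lncRNA, with GapmeR1 and GapmeR2 for each of lnc-TIMM21-5 (3 and 3 samples), lnc-NKX2-3-1 (2 and 3), lnc-RTN4R-1 (3 and 3) and lnc-ASTN1-1 (3 and 2). NTC was also given at 10 µM, and medium and NTC together are the 5 controls. All groups are the same cell line, so they hold no donor or line to compare, and per the study's methods replicates were done on separate days.

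A GapmeR is a short single-stranded oligonucleotide whose DNA core is flanked on either side by locked nucleic acid. When its DNA part pairs with an RNA, RNase H1 can cut the RNA strand of that hybrid, and the exonucleases XRN2 in the nucleus and XRN1 in the cytoplasm degrade 5′-phosphorylated RNA pieces of the kind such cuts leave. RNase H2, a complex of a catalytic subunit (RNASEH2A) with RNASEH2B and RNASEH2C, also cuts RNA in hybrids and removes ribonucleotides from DNA. SFPQ, NONO and PSPC1 are related RNA-binding proteins that assemble paraspeckles, nuclear bodies built on the lncRNA NEAT1, and La binds the 3′ ends of new RNA polymerase III transcripts. Proteins of these last families are known to bind modified oligonucleotides in cells.

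The genes lie apart on the genome (GRCh38, GENCODE v44). RNASEH1 (ENSG00000171865) is at chr2:3541430-3558333 on the minus strand, RNASEH2A (ENSG00000104889) at chr19:12806584-12813640 on the plus strand, RNASEH2B (ENSG00000136104) at chr13:50909747-51024120 on the plus strand and RNASEH2C (ENSG00000172922) at chr11:65714005-65720818 on the minus strand. XRN1 (ENSG00000114127) is at chr3:142306607-142448062 on the minus strand and XRN2 (ENSG00000088930) at chr20:21303331-21389825 on the plus strand. SFPQ (ENSG00000116560) is at chr1:35176378-35193446 on the minus strand, NONO (ENSG00000147140) at chrX:71254814-71301522 on the plus strand, PSPC1 (ENSG00000121390) at chr13:19674752-19783019 on the minus strand and SSB (ENSG00000138385) at chr2:169791933-169812064 on the plus strand.

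The oligonucleotides are shown because every comparison below rests on which of them the cells received. Their sequences come from the study's oligonucleotide list and are written 5′ to 3′. Capitals mark the bases at which the sites of both GapmeRs of one lncRNA overlap, which occurred only for lnc-TIMM21-5, over 8 bases.
NTC: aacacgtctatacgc
lnc-TIMM21-5 GapmeR1: AATTTTGCatttggta
lnc-TIMM21-5 GapmeR2: gtcactttAATTTTGC
lnc-NKX2-3-1 GapmeR1: tgctctgtgcggattg
lnc-NKX2-3-1 GapmeR2: ctgatttttagtagtg
lnc-RTN4R-1 GapmeR1: gcattcatgggttaag
lnc-RTN4R-1 GapmeR2: tgctgagacatctagg
lnc-ASTN1-1 GapmeR1: taatctgccaggagtg
lnc-ASTN1-1 GapmeR2: gtctgaagtaatgga

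Each of the 8 targeting GapmeRs paired over its full length with its own spliced lncRNA in GENCODE v44 (GRCh38). Both lnc-NKX2-3-1 sites lie side by side in 1 exon, at chr10:99528207-99528222 for GapmeR1 and chr10:99528191-99528206 for GapmeR2 on the plus strand. The site of lnc-ASTN1-1 GapmeR1 crosses a splice junction, so it pairs over 16 bases in the spliced RNA but not in the unspliced RNA. The longest run of this GapmeR in the unspliced lncRNA was 12 bases, at another site within an intron. None of the 9 oligonucleotides paired over its full length with any of the 10 genes. Over the 90 combinations of gene and oligonucleotide, the longest run without mismatch in the unspliced RNA was 6 to 12 bases, and the best full-length alignment held at least 2 mismatches. Runs of 12 bases occurred in 2 combinations, both in introns. They are shown with the paired bases in capitals.
lnc-NKX2-3-1 GapmeR2 in RNASEH2A, chr19:12812836-12812847: ctgaTTTTTAGTAGTG
lnc-ASTN1-1 GapmeR2 in NONO, chrX:71267877-71267888: gtCTGAAGTAATGGa
Runs of at least 12 bases were found in 8.713% of the 12453 protein-coding genes searched for the first of these GapmeRs and in 1.502% for the second. RNASEH2A with lnc-NKX2-3-1 GapmeR2 and NONO with lnc-ASTN1-1 GapmeR2 did not pass the test against the controls, as given below. Alignments with 2 mismatches occurred in 4 combinations, all in introns: RNASEH2B with lnc-TIMM21-5 GapmeR1, XRN1 with lnc-NKX2-3-1 GapmeR2, and NONO and PSPC1 with lnc-ASTN1-1 GapmeR2. Of the 12453 genes, 5.33%, 4.75% and 5.93% had an alignment with at most 2 mismatches to these GapmeRs, in the same order.

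The libraries held 14627110 to 22750945 counts in genes (median 18776820), and 71.5% to 77.0% of reads were assigned to a gene. Each targeted lncRNA had a mean of 13.1% to 52.2% of its control level with its own GapmeRs, with every sample below all 5 controls, and edgeR called 6 of these 8 falls. Not called were lnc-TIMM21-5 with GapmeR1 and lnc-NKX2-3-1 with GapmeR2 (adjusted p 0.0652 and 0.913). These lncRNAs were low in the controls, at means of 1.57 and 0.764 CPM, beside 20.9 CPM for lnc-RTN4R-1 and 25.3 CPM for lnc-ASTN1-1. Among the markers of the cell type, 10 of 11 genes of B-lineage precursors were expressed at a mean of at least 1 CPM, with VPREB1 at 0 counts in all samples. By the same cutoff, 1 of 5 T cell, 3 of 5 myeloid, 0 of 5 erythroid and 2 of 6 stromal, endothelial and epithelial markers were expressed. CPM are counts scaled to a common library size after TMM normalisation.

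The 10 RNAs were present at very different levels per transcript length. Mean levels over the 27 samples were divided by the length of the Ensembl canonical transcript and are given as CPM per kb. NONO was highest, at 290.3 ± 15.1 CPM per kb (SD, n = 27), followed by its partner SFPQ at 247 ± 20.0. The ranges of both overlapped, with 244 to 317 for NONO and 223 to 305 for SFPQ. RNASEH2B, at 134 ± 10.9 CPM per kb, also overlapped with SSB, at 123.5 ± 10.5. XRN2 followed at 74.4 ± 6.87 CPM per kb, RNASEH2A at 52.5 ± 5.77 and PSPC1 at 32.3 ± 2.50, each above the next with no shared value. RNASEH2C at 17.4 ± 2.14 overlapped with XRN1 at 11.6 ± 1.08, and RNASEH1, the enzyme GapmeRs are designed for, was lowest at 6.89 ± 0.608 CPM per kb. Within RNase H2 the RNA of RNASEH2B thus lay above that of RNASEH2A and RNASEH2C in every sample, and within the paraspeckle proteins PSPC1 lay below NONO and SFPQ in every sample. Counts per sample ran from 496 (RNASEH1) to 24876 (SFPQ). RNASEH2C overlaps KAT5 over 1439 exon bases. Reads on its opposite strand were 37.8% of the reads on both strands together and were kept apart by strand. For the other 9 genes this share was at most 3.43%.

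**Figure D1:**
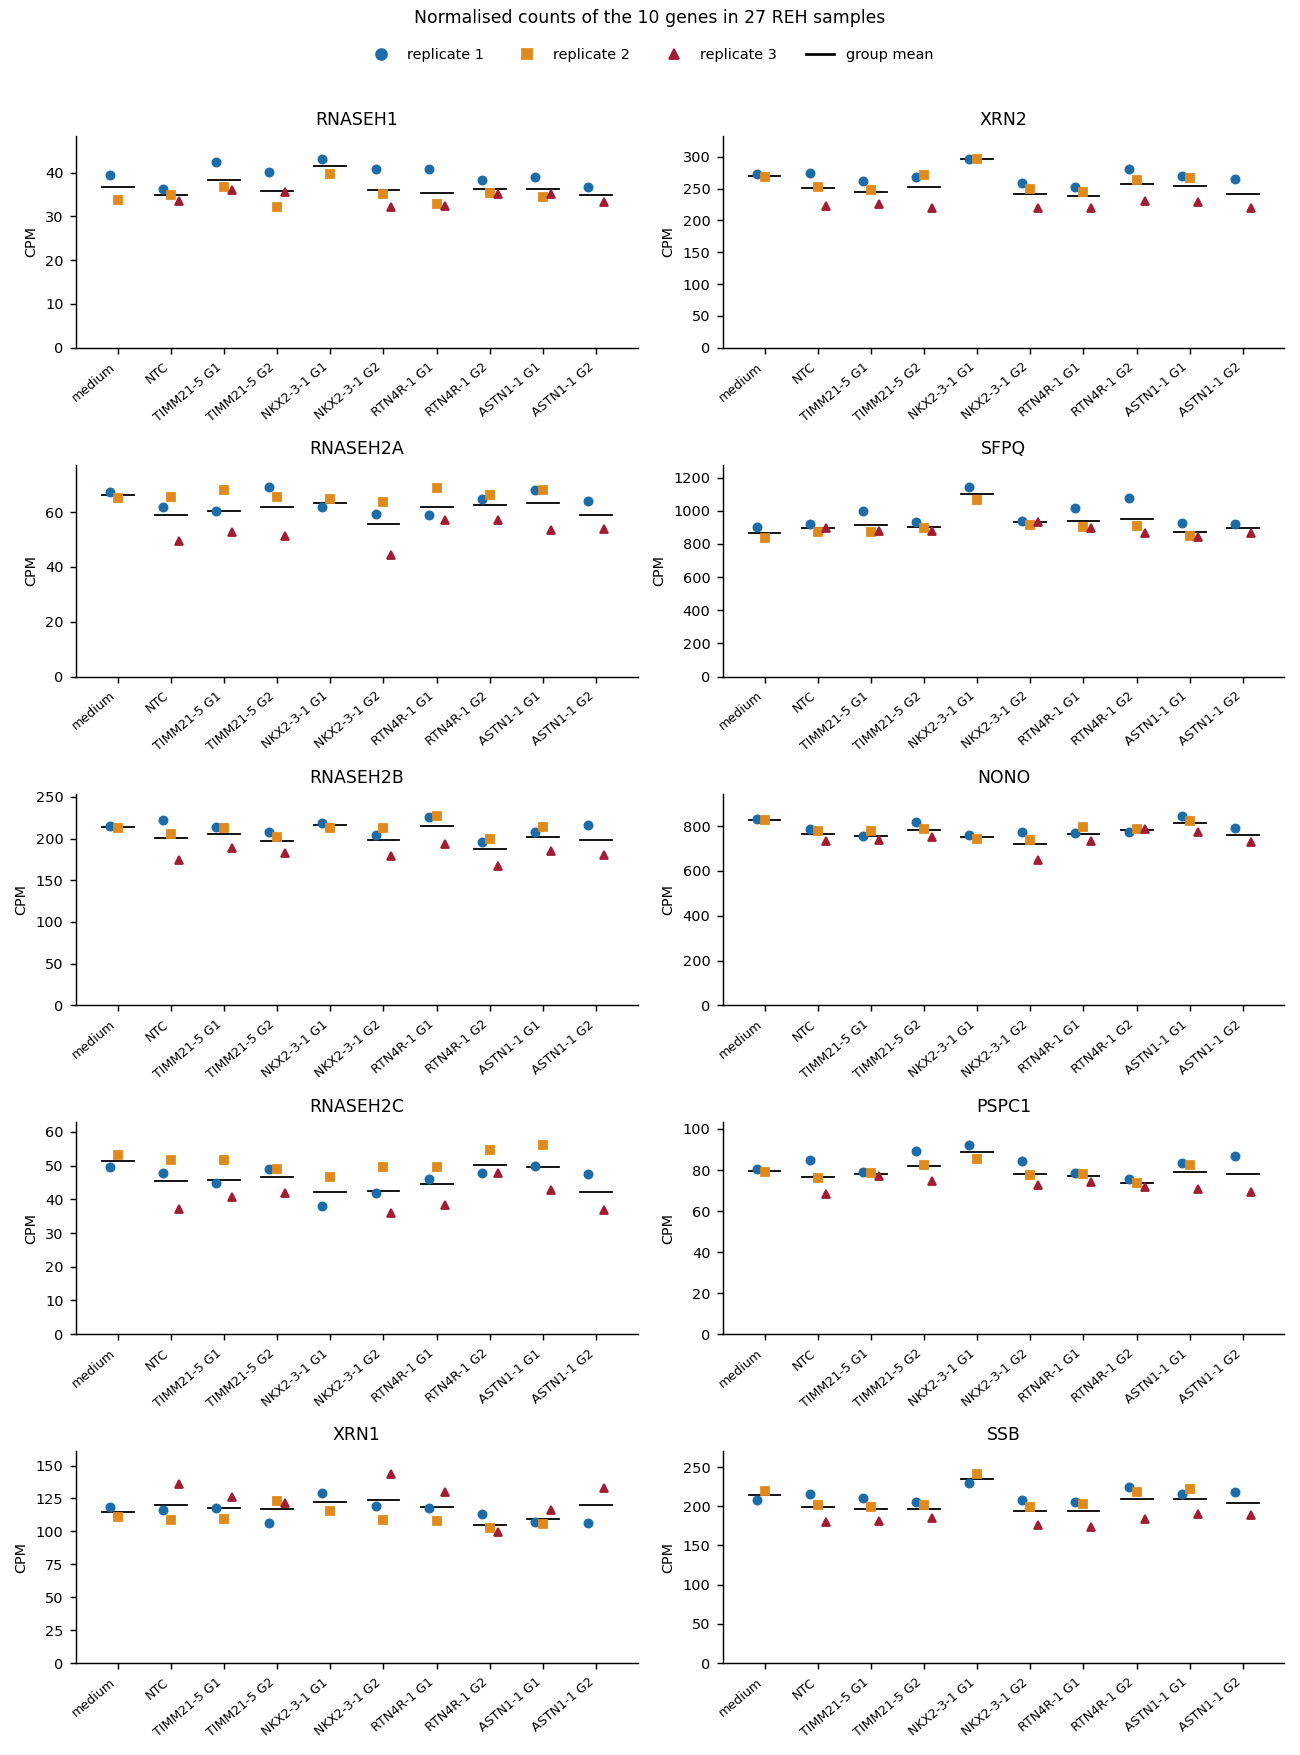
Normalised counts (CPM, linear axis from 0) of each gene in the 27 samples, with 1 column per treatment group, symbols and colours for replicate number and a line for the group mean. In the panels of RNASEH2A, RNASEH2B, XRN2 and SSB the replicate 3 samples lie below all others, and SFPQ is highest with lnc-NKX2-3-1 GapmeR1, at 1140 and 1063 CPM.

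Differences between treatment groups were small for all 10 genes. The highest group mean was 1.15 (NONO and RNASEH2B) to 1.27 times (SFPQ) the lowest. The highest group was lnc-NKX2-3-1 GapmeR1 for 6 of the 10 genes (RNASEH1, RNASEH2B, XRN2, SFPQ, PSPC1 and SSB) and medium for 3 (RNASEH2A, RNASEH2C and NONO). Neither lnc-NKX2-3-1 GapmeR1 nor medium has a replicate 3 sample, and most of the 10 genes were lower in replicate 3, as described below. The test of any difference among the 10 groups (edgeR quasi-likelihood, adjusted over all genes) called 0 of the 10 genes, against 16.1% of the 16268 genes tested. At an unadjusted p under 0.05 it held 1 gene, SFPQ, whose adjusted p was 0.173. DESeq2 called SFPQ alone, at an adjusted p of 0.0359. The result depends on the replicate number being left out of the fit. With it as a block, edgeR called 6 of the 10 genes, against 48.6% of all genes. Because cells were sequenced in bulk, fewer cells with a high level of a gene and less of its RNA per cell cannot be told apart in any of these values.

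Each GapmeR was then compared with the 5 controls, which all 8 comparisons share. Of the 80 combinations of gene and GapmeR, edgeR called 1, a rise of SFPQ with lnc-NKX2-3-1 GapmeR1. In 76 combinations the log2 fold change was under 0.2 in size, and in 64 under 0.1. The share of all genes called ranged widely between GapmeRs. With lnc-NKX2-3-1 it was 17.6% (GapmeR1) and 0% (GapmeR2, where 615 genes had an unadjusted p under 0.05 and DESeq2 called 9). With lnc-RTN4R-1 it was 1.59% and 6.62%, with lnc-ASTN1-1 0.718% and 0.013%, and with lnc-TIMM21-5 0.079% and 0.0593%, GapmeR1 first. The single call among 10 genes for lnc-NKX2-3-1 GapmeR1 is thus not above the share of all genes.

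SFPQ, an RNA-binding protein needed for paraspeckles and also active in splicing, had 1140 and 1063 CPM in replicates 1 and 2 of lnc-NKX2-3-1 GapmeR1. The controls had 901 and 833 CPM (medium) and 921, 869 and 897 CPM (NTC). Both samples lay above all 5 controls, and above every sample of the other GapmeRs but replicate 1 of lnc-RTN4R-1 GapmeR2, at 1077 CPM. SFPQ rose 1.25-fold (0.32 on the log2 scale, 95% interval 0.16 to 0.49, edgeR adjusted p 0.0112). Against the controls with the same replicate number, SFPQ was 0.32 higher on the log2 CPM scale in replicate 1 and 0.32 higher in replicate 2. With replicates 1 and 2 only, the adjusted p was 0.00183. The fold was about as large but not called without replicate 1 (0.28, adjusted p 0.154) or replicate 2 of this GapmeR (0.37, adjusted p 0.0648), where the lone sample is assumed to vary like the controls, and with NTC as the only control (0.31, adjusted p 0.0515). The GapmeR and SFPQ share no run of pairing longer than 7 bases, and their best alignment held 6 mismatches. Summed CPM of the 5 myeloid markers were 171 and 207 in these samples and 103 to 162 in the controls. Most of this sum was MPO, with a mean of 136 CPM over all samples, beside 15.9 CPM for CSF3R, the next highest. Summed CPM of the 11 B-lineage markers were 6362 and 6762 against 5438 to 6199. The part of both marker sets in the SFPQ result was not tested.

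The 4 genes RNASEH1, XRN2, PSPC1 and SSB also had every lnc-NKX2-3-1 GapmeR1 sample above all controls without passing the test. How many of all genes lay apart from the controls in this way was not counted. RNASEH1 had 43.2 and 39.7 CPM against 33.5 to 39.4 CPM in the controls (log2 fold change 0.23, 95% interval 0.04 to 0.42, adjusted p 0.0891). XRN2, the nuclear exonuclease, had 296.9 and 295.9 CPM against 223 to 275 (0.21, interval 0.02 to 0.39, adjusted p 0.117). PSPC1 had 92.1 and 85.5 CPM against 68.4 to 85.1 (0.20, interval 0.02 to 0.38, adjusted p 0.128), and SSB 229 and 241 CPM against 180 to 219 (0.21, interval 0.03 to 0.39, adjusted p 0.108). These 4 and SFPQ were the 5 genes with an unadjusted p under 0.05 for this GapmeR, where 4772 of 15402 genes had one. NONO, the usual partner of SFPQ, was at 759 and 743 CPM against 734 to 833 (-0.07, interval -0.24 to 0.10), and RNASEH2C at 37.9 and 46.6 CPM against 37.2 to 53.1 (-0.17, interval -0.45 to 0.10). Against the controls with the same replicate number, RNASEH2C was at -0.36 and -0.17 on the log2 CPM scale. The median log2 fold change of the 10 genes was 0.14, beside 0.00 over all genes tested. This GapmeR has no replicate 3, while the controls include 1 replicate 3 sample, and the levels of most of these genes differed in replicate 3, as described below.

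**Figure D2:**
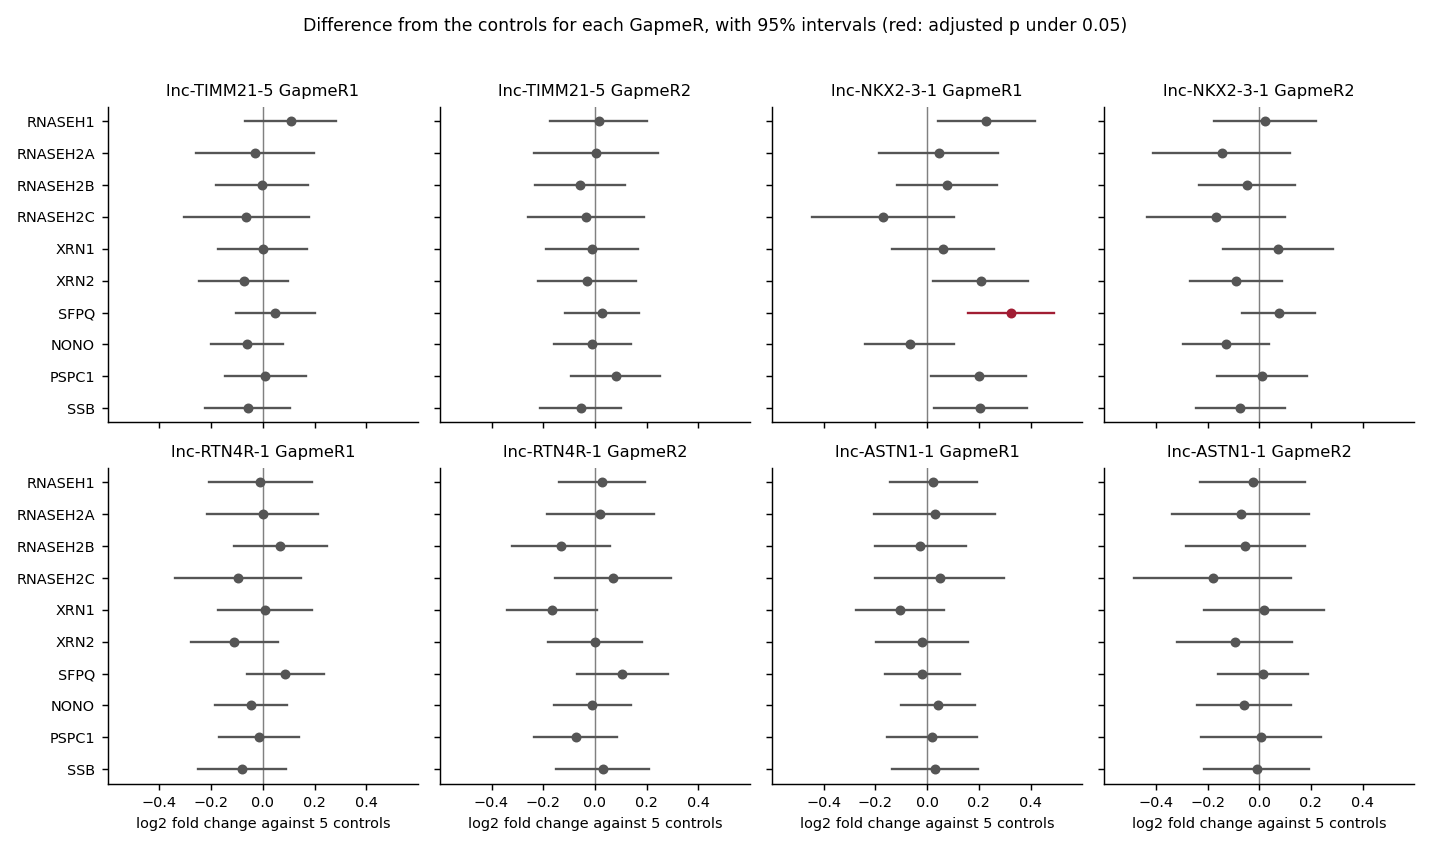
Log2 fold change of each gene for each GapmeR against the 5 controls, with 95% intervals from the edgeR fit and calls in red. SFPQ with lnc-NKX2-3-1 GapmeR1 is the single red point (0.32), and the points of the other 7 GapmeRs lie between -0.18 and 0.11.

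For the other 7 GapmeRs, edgeR called 0 of 70 combinations, with 0 at an unadjusted p under 0.05, and DESeq2 also called 0. Log2 fold changes ran from -0.18 to 0.11, and no 95% interval reached below -0.48 or above 0.30.

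Among the RNases H, RNASEH1 had its values for these 7 GapmeRs between -0.03 (lnc-ASTN1-1 GapmeR2) and 0.11 (lnc-TIMM21-5 GapmeR1). For lnc-TIMM21-5 GapmeR1 its samples were at 42.3, 36.7 and 35.9 CPM, and they overlapped the controls. RNASEH2A, the catalytic subunit of RNase H2, was lowest with lnc-NKX2-3-1 GapmeR2, at 59.2, 63.7 and 44.4 CPM (-0.15, interval -0.41 to 0.12, adjusted p 0.913). That is the combination with the 12-base run shown above. RNASEH2B was lowest with lnc-RTN4R-1 GapmeR2, at 196, 199.99 and 167 CPM against 174 to 223 in the controls (-0.13, interval -0.32 to 0.06, adjusted p 0.447). RNASEH2C had the lowest value of all 80, -0.18 with lnc-ASTN1-1 GapmeR2 (47.5 and 36.9 CPM, interval -0.48 to 0.12, adjusted p 1.00), and all of these groups overlapped the controls.

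Among the exonucleases, XRN1 was lowest with lnc-RTN4R-1 GapmeR2, with 113, 103 and 99.3 CPM against 109 to 136 in the controls (-0.17, interval -0.34 to 0.01, adjusted p 0.266). The gap to the control of the same replicate number was -0.06 and -0.10 on the log2 CPM scale for replicates 1 and 2 and -0.45 for replicate 3, where the single control was the highest of the 5. XRN2 was lowest with lnc-RTN4R-1 GapmeR1, at 252, 245 and 220 CPM (-0.11, interval -0.28 to 0.06, adjusted p 0.793). Among the nuclear binding proteins, SFPQ had positive values for 7 of the 8 GapmeRs, the largest of the other 7 being 0.11 with lnc-RTN4R-1 GapmeR2, at 1077, 906 and 864 CPM. NONO had negative values for 7 of 8, the lowest -0.13 with lnc-NKX2-3-1 GapmeR2, at 775, 739 and 650.0 CPM (adjusted p 0.913). NONO with lnc-ASTN1-1 GapmeR2, the other 12-base run, was at 791 and 728 CPM (-0.06, interval -0.24 to 0.12, adjusted p 1.00). PSPC1 was within -0.07 and 0.08, and SSB within -0.08 and 0.03, for the same 7 GapmeRs.

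The design of the study takes both GapmeRs of a lncRNA together against the controls. On that basis edgeR called 0 of the 10 genes for each lncRNA, as did DESeq2, and 1 combination had an unadjusted p under 0.05, SFPQ with the lnc-NKX2-3-1 GapmeRs (log2 fold change 0.18, interval 0.01 to 0.34, adjusted p 0.661). The shares of all genes called were 0.476% with lnc-RTN4R-1, 0.0136% with lnc-ASTN1-1, 0.00665% with lnc-TIMM21-5 and 0% with lnc-NKX2-3-1 (1104 genes at an unadjusted p under 0.05, 11 called with DESeq2). Over the 40 combinations the log2 fold changes were between -0.17 and 0.18.

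Whether both GapmeRs of a lncRNA differ was tested directly. edgeR called 0 of the 10 genes for each lncRNA, while of all genes 13% were called with lnc-NKX2-3-1, 5.92% with lnc-RTN4R-1, 0.146% with lnc-ASTN1-1 and 0.0784% with lnc-TIMM21-5. For lnc-NKX2-3-1, 3 of the 10 had an unadjusted p under 0.05, where 4442 of 15376 genes had one. Each of the 3 had all samples of GapmeR1 above those of GapmeR2, a separation not counted over all genes. They were XRN2 (0.30, interval 0.09 to 0.50, adjusted p 0.0606), SSB (0.28, interval 0.07 to 0.48, adjusted p 0.0768) and SFPQ (0.25, interval 0.05 to 0.45, adjusted p 0.0966). DESeq2 called XRN2 (adjusted p 0.0397). Without replicate 3 of GapmeR2, so that both had replicates 1 and 2, edgeR called XRN2 (0.23, adjusted p 0.0276), SFPQ (0.25, adjusted p 0.0220) and SSB (0.21, adjusted p 0.0462). The share of all genes called without that replicate is not given here, and with it the share was 13%. For lnc-RTN4R-1, RNASEH2B had 226, 227 and 194 CPM with GapmeR1 and 196, 199.99 and 167 CPM with GapmeR2 (0.20, interval -0.003 to 0.41, adjusted p 0.246), and XRN1 118, 108 and 130.2 CPM against 113, 103 and 99.3 CPM (0.18, interval -0.01 to 0.37, adjusted p 0.264). DESeq2 called neither. Both genes were higher with GapmeR1 at each replicate number.

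Cells given an oligonucleotide were also set against cells given none. For NTC against medium, edgeR called 0 of the 10 genes and 0% of all genes (670 at an unadjusted p under 0.05), and DESeq2 called 0 genes. NONO was the single gene of the 10 whose groups did not overlap, at 786, 777 and 734 CPM with NTC and 833 and 826 CPM in medium (-0.11, interval -0.32 to 0.10, adjusted p 0.929). With 3 and 2 samples some genes separate by chance, and their share over all genes was not counted. The 95% intervals of the 10 genes lay between -0.45 and 0.30. With all 9 GapmeR groups against medium, edgeR and DESeq2 called 0 of the 10, and 0 had an unadjusted p under 0.05, beside 0.529% of all genes called by edgeR. NONO had the lowest p there (-0.11, interval -0.23 to 0.01, adjusted p 0.553), RNASEH2C the lowest value (-0.18, interval -0.43 to 0.08) and SFPQ the highest (0.10, interval -0.05 to 0.25). Medium has 2 samples and no replicate 3.

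All 10 genes differed with the replicate number. With the group as a covariate, edgeR called every one of them, against 61.1% of all genes. Replicate 3 differed from the mean of replicates 1 and 2 in all 10, against 54.1% of all genes, and 9 fell while XRN1 rose. RNASEH2A fell by 0.31 on the log2 scale (standard error 0.0318, adjusted p 7.53e-11), RNASEH2C by 0.29, XRN2 by 0.23, RNASEH2B by 0.22 and SSB by 0.21. The remaining falls were 0.15 for PSPC1, 0.10 for RNASEH1, 0.09 for NONO and 0.07 for SFPQ, and XRN1 rose by 0.17 (standard error 0.0385, adjusted p 0.000448). The median size over all genes was 0.15.

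For 4 genes the levels did not overlap between replicate 3 and the others. The share of all genes without such overlap was not counted, while 54.1% of all genes were called for replicate 3. RNASEH2A had 44.4 to 57.3 CPM (median 53.1, n = 8) in replicate 3, 59.0 to 69.0 CPM (median 62.9, n = 10) in replicate 1 and 63.7 to 68.9 CPM (median 65.6, n = 9) in replicate 2. XRN2 had 219 to 231 CPM (median 222) in replicate 3, against 252 to 297 CPM (median 269) and 245 to 296 CPM (median 263). RNASEH2B had 167 to 194 CPM (median 182) in replicate 3 against 196 to 226 (median 215) and 199.99 to 227 (median 213). SSB had 173 to 190.3 CPM (median 182) against 205 to 229 (median 213) and 199 to 241 (median 202). XRN1 went the other way with overlap, at 99.3 to 144 CPM (median 128) in replicate 3 against 106 to 129 (median 117) and 102.7 to 123.3 (median 109). Between replicates 2 and 1, edgeR called 3 of the 10, against 23.4% of all genes: RNASEH1 (-0.19), SFPQ (-0.13) and RNASEH2C (0.15). Medium and lnc-NKX2-3-1 GapmeR1 have no replicate 3, and lnc-ASTN1-1 GapmeR2 has no replicate 2, so these group means rest on other replicate numbers than the rest.

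**Figure D3:**
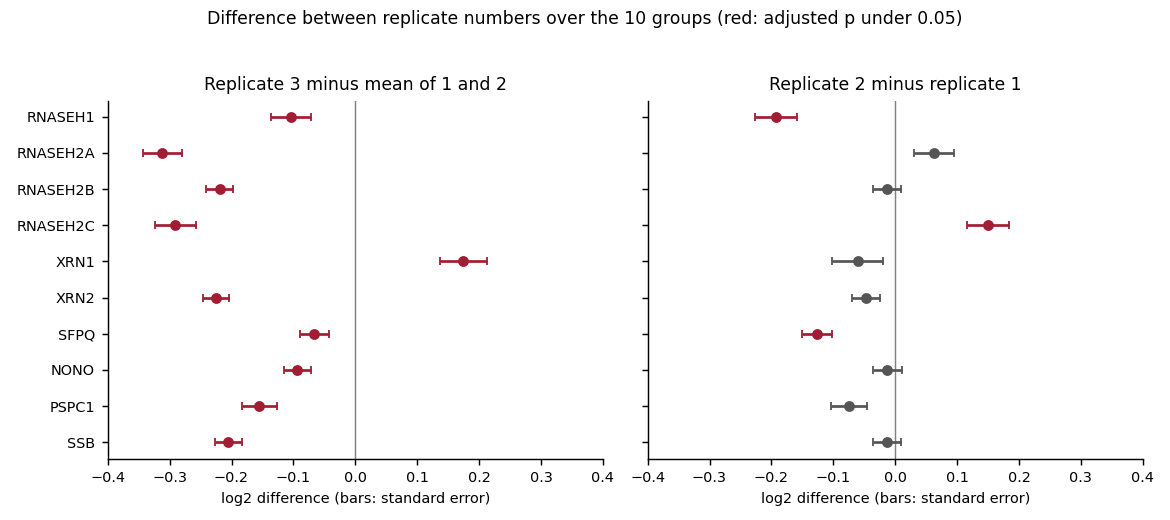
Log2 difference between replicate numbers for each gene, estimated over the 10 groups, with standard errors as bars and calls in red. Replicate 3 lies below the mean of replicates 1 and 2 for 9 genes, from -0.31 (RNASEH2A) to -0.07 (SFPQ), and above it for XRN1 (0.17).

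Genes of one family were not all correlated across samples. Over the 27 samples, which share the replicate numbers, XRN2 and SSB correlated most (Pearson r 0.94 between log2 CPM values, and 0.79 after the mean of each replicate number was removed). RNASEH2A and RNASEH2C correlated at 0.83 (0.56 after removal), but RNASEH2A and RNASEH2B, which correlated at 0.74, were at -0.01 after removal. XRN1 ran against RNASEH2C (-0.87, and -0.85 after removal) and against NONO (-0.73 and -0.64). Over the 45 pairs the median was 0.52, and 0.04 after removal. The spread over samples was smallest for NONO, with an SD of 0.0770 on the log2 CPM scale, and largest for RNASEH2C (0.182) and RNASEH2A (0.167). The median over the 10855 genes with a mean of at least 5 CPM was 0.142.

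By the highest correlation over the 27 samples among 10853 other genes with a mean of at least 5 CPM, SSB was most like CCT2 (Pearson r 0.96) and NAE1 (0.95), and XRN2 most like DLD (0.96) and NCL (0.96), which encodes nucleolin. RNASEH2A was most like SNRNP25 (0.95) and GAPDH (0.95), RNASEH2B like SKA2 (0.93) and HAT1 (0.92), and RNASEH2C like ACTB (0.94) and GPI (0.93). RNASEH1 had its highest values with TMEM183A (0.87) and KANSL2 (0.86), and XRN1 with PANK3 (0.92) and AFF4 (0.92). For the paraspeckle proteins these were BCLAF1 (0.89) and ZNF217 (0.89) with SFPQ, HIGD2A (0.92) and APEH (0.91) with NONO, and EXOSC8 (0.89) and RBMX (0.88) with PSPC1. After the mean of each replicate number was removed, NONO and HIGD2A stayed at 0.92, while RNASEH2B and HAT1 were at 0.65.

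The levels were then set against how many genes each GapmeR lowered, from 0 (lnc-NKX2-3-1 GapmeR2), 2 (lnc-ASTN1-1 GapmeR2), 9 and 12 (lnc-TIMM21-5 GapmeR2 and GapmeR1), 88 (lnc-RTN4R-1 GapmeR1) and 102 (lnc-ASTN1-1 GapmeR1) to 580 (lnc-RTN4R-1 GapmeR2) and 1571 (lnc-NKX2-3-1 GapmeR1). The 8 points share the 5 controls behind the number of genes lowered, but they do not all hold the same replicate numbers. lnc-NKX2-3-1 GapmeR1 has no replicate 3 and lnc-ASTN1-1 GapmeR2 has no replicate 2, while most of the genes described were lower in replicate 3. RNASEH2A had the highest rank correlation with that number (Spearman rho 0.95, Pearson r 0.52, n = 8), and 0.553% of 16264 genes had a larger one in size. The middle 90% of all genes ran from -0.79 to 0.81. Its group means on the log2 CPM scale rose from 5.79 at 0 genes lowered to 5.99 at 1571, a span smaller than its shift with replicate 3. With levels and numbers of genes lowered from replicates 1 and 2 only, rho for RNASEH2A was 0.10 and r was -0.15, so the relation was not seen in those samples.

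The other genes lay inside the range of most genes. Spearman rho was 0.71 for XRN2, 0.64 for RNASEH1 and SSB, 0.50 for SFPQ, 0.36 for RNASEH2C, 0.33 for RNASEH2B, 0.26 for NONO, 0.14 for PSPC1 and -0.40 for XRN1. For XRN2, SFPQ and SSB, Pearson r was 0.95, 0.93 and 0.92, but without the 2 GapmeRs farthest from the median number (lnc-NKX2-3-1 GapmeR1 and lnc-RTN4R-1 GapmeR2) it was 0.24, -0.21 and 0.34 over 6 GapmeRs. These relations therefore rest on those GapmeRs. For RNASEH2A r was 0.68 without them. With replicates 1 and 2 only, r for XRN2, SFPQ and SSB was 0.85, 0.95 and 0.83 over all 8 GapmeRs. Without the same 2 GapmeRs it was -0.19, 0.006 and 0.20 in those samples. RNASEH1 had 5.38 on the log2 CPM scale with the GapmeR that lowered 1571 genes, 5.18 with the one that lowered 580 and 5.17 with the one that lowered 0.

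**Figure D4:**
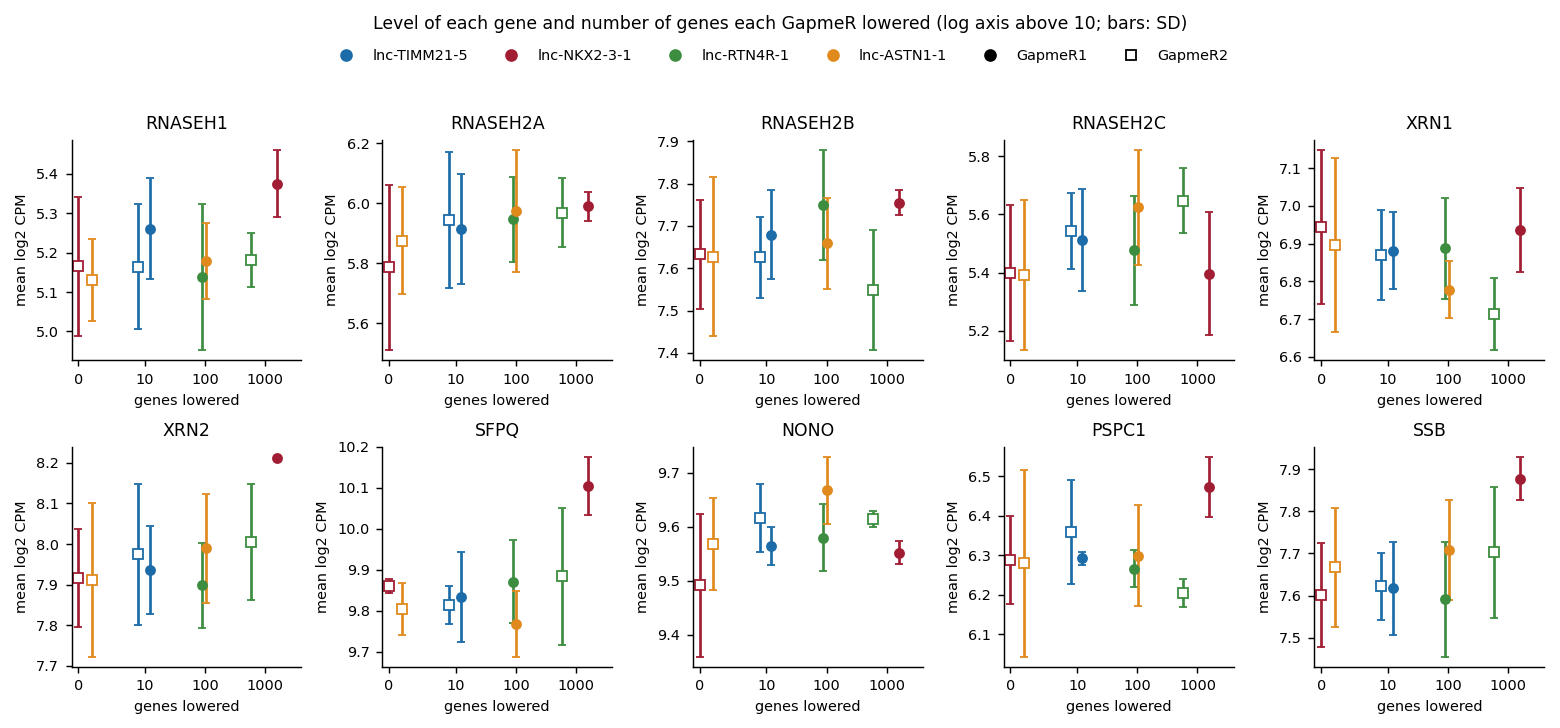
Mean log2 CPM of each gene (bars, SD over the 2 or 3 samples) for each of the 8 GapmeRs, against the number of genes that GapmeR lowered, on an axis that is linear to 10 and logarithmic above. RNASEH2A runs from 5.79 at 0 genes to 5.99 at 1571, and SFPQ, XRN2 and SSB are highest at 1571, with lnc-NKX2-3-1 GapmeR1.

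The other genes of these pathways were taken from 7 lists with 152 genes in all, of which 148 were tested. They were chosen by function, with earlier results of these data known. Against the controls, 26 of the 148 (17.6%) were called for lnc-NKX2-3-1 GapmeR1, 18 higher and 8 lower, which is the same share as over all genes. For lnc-RTN4R-1 GapmeR2 6 were called (3 higher, 3 lower), which is 4.05% beside 6.62% of all genes. For lnc-RTN4R-1 GapmeR1 2 were called (1 and 1), 1.35% beside 1.59%, for lnc-ASTN1-1 GapmeR1 2 (both lower), 1.35% beside 0.718%, and 0 for the other 4 GapmeRs. In those 4, each had 3 of the 148 at an unadjusted p under 0.05, and DESeq2 called 0.

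Among 19 other paraspeckle components, lnc-NKX2-3-1 GapmeR1 moved 1 (5.26%, beside 17.6% of all genes), a rise of EWSR1 (0.24, standard error 0.0732, adjusted p 0.0396), and the list's median was 0.14. lnc-RTN4R-1 GapmeR1 lowered 1, and that gene was NEAT1, the lncRNA on which paraspeckles form. NEAT1 was at 217, 185 and 179 CPM with this GapmeR, at 392 and 321 CPM in medium and at 443, 402 and 470 CPM with NTC. All 3 samples lay below all controls, and NEAT1 fell by 1.07 on the log2 scale (edgeR adjusted p 0.000373). With lnc-RTN4R-1 GapmeR2 NEAT1 was at 449, 384 and 386 CPM, and the direct difference between both GapmeRs was -1.07 (standard error 0.0974, adjusted p 0.000259). In the same lnc-RTN4R-1 GapmeR1 samples SFPQ was at 1015, 900.2 and 898 CPM (0.09, interval -0.06 to 0.24), NONO at 768, 797 and 732 CPM (-0.05, interval -0.19 to 0.10) and PSPC1 at 78.5, 78.1 and 74.0 CPM (-0.01, interval -0.17 to 0.14), and none of these 3 passed the test.

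Among 25 genes of the exosome and nuclear 3′ decay, lnc-NKX2-3-1 GapmeR1 moved 7 (5 higher, 2 lower, median 0.04), which is 28% beside 17.6% of all genes. DIS3L2, a 3′ to 5′ exonuclease, fell with 3 GapmeRs, by 1.13 with lnc-NKX2-3-1 GapmeR1 (16.8 ± 2.73 CPM, n = 2, against 36.9 ± 2.09 CPM in the controls, n = 5, edgeR adjusted p 1.23e-05), by 0.56 with lnc-ASTN1-1 GapmeR1 (adjusted p 0.00174) and by 0.40 with lnc-RTN4R-1 GapmeR2 (adjusted p 0.00556). Its direct difference between both GapmeRs was -1.10 for lnc-NKX2-3-1 (adjusted p 0.000325), 0.36 for lnc-RTN4R-1 (adjusted p 0.0213) and, not called, -0.53 for lnc-ASTN1-1 (adjusted p 0.124). The polymerase gene TENT4A fell by 0.51 with lnc-NKX2-3-1 GapmeR1, and ZCCHC8 and the exosome subunit EXOSC6 rose by 0.33 and 0.29.

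Of 25 decapping factors and partners of XRN1 and XRN2, the same GapmeR moved 5 (3 higher, 2 lower, median 0.11), or 20% beside the 17.6%. NUDT16, a nuclear decapping enzyme, fell by 0.52 and DCP1B, a decapping cofactor, by 0.44, while NKRF, a partner of XRN2, rose by 0.44. Of 18 genes for ribonucleotide repair and DNA ends it moved 5 (4 higher, 1 lower, median 0.19), or 27.8%. XRCC5, a subunit of the Ku DNA end-binding complex, fell by 0.80 (453 ± 10.4 CPM, n = 2, against 793 ± 77.7 CPM, n = 5, adjusted p 0.000142), and POLE and TOP1 rose by 0.42 and 0.29. SAMHD1, a dNTP hydrolase, rose with both lnc-RTN4R-1 GapmeRs, by 0.64 (adjusted p 0.0363) and 0.47 (adjusted p 0.0486), and SAMHD1 was not called with both together (0.56, adjusted p 0.0508).

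Of 25 other proteins known to bind oligonucleotides, 0 were called by edgeR against the controls with any GapmeR, beside 17.6% of all genes for lnc-NKX2-3-1 GapmeR1 and 6.62% for lnc-RTN4R-1 GapmeR2. For lnc-NKX2-3-1 GapmeR1 their median was 0.13, 6 had an unadjusted p under 0.05 and DESeq2 called 1, and for each of the other 7 GapmeRs at most 2 had such a p and DESeq2 called 0. Of 16 La partners and La-related proteins tested, lnc-NKX2-3-1 GapmeR1 moved 3 (18.8%, beside 17.6%). LARP7 and LARP1B each fell by 0.57, and HEXIM1, an inhibitor of P-TEFb, rose by 0.67. RPP30, a subunit of RNase P, fell by 0.45 with lnc-ASTN1-1 GapmeR1. Of 20 further RNases tested, including AGO2, lnc-NKX2-3-1 GapmeR1 moved 5 (4 higher, 1 lower, or 25% beside 17.6%), with ANGEL1 at -0.40. lnc-RTN4R-1 GapmeR2 moved 2. DROSHA, the nuclease that opens microRNA precursors, fell by 0.98 with it, from 100.1 ± 10.4 CPM in the controls (n = 5) to 50.8 ± 2.45 CPM (n = 3, adjusted p 1.14e-05), and was at 99.4 ± 6.30 CPM with lnc-RTN4R-1 GapmeR1 (direct difference 0.97, adjusted p 9.35e-05). RNASET2 rose by 0.66. The summed myeloid markers were at 314 to 483 CPM in the lnc-RTN4R-1 GapmeR2 samples against 103 to 162 CPM in the controls. Most of this sum was MPO, which reached 445 CPM over all samples. CSF3R reached 30.8 CPM, ITGAM 6.49 CPM, CD14 0.923 CPM and LYZ 0.348 CPM. The part of these markers in the changes of DROSHA, RNASET2, SAMHD1 and DIS3L2 with this GapmeR was not tested.

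**Figure D5:**
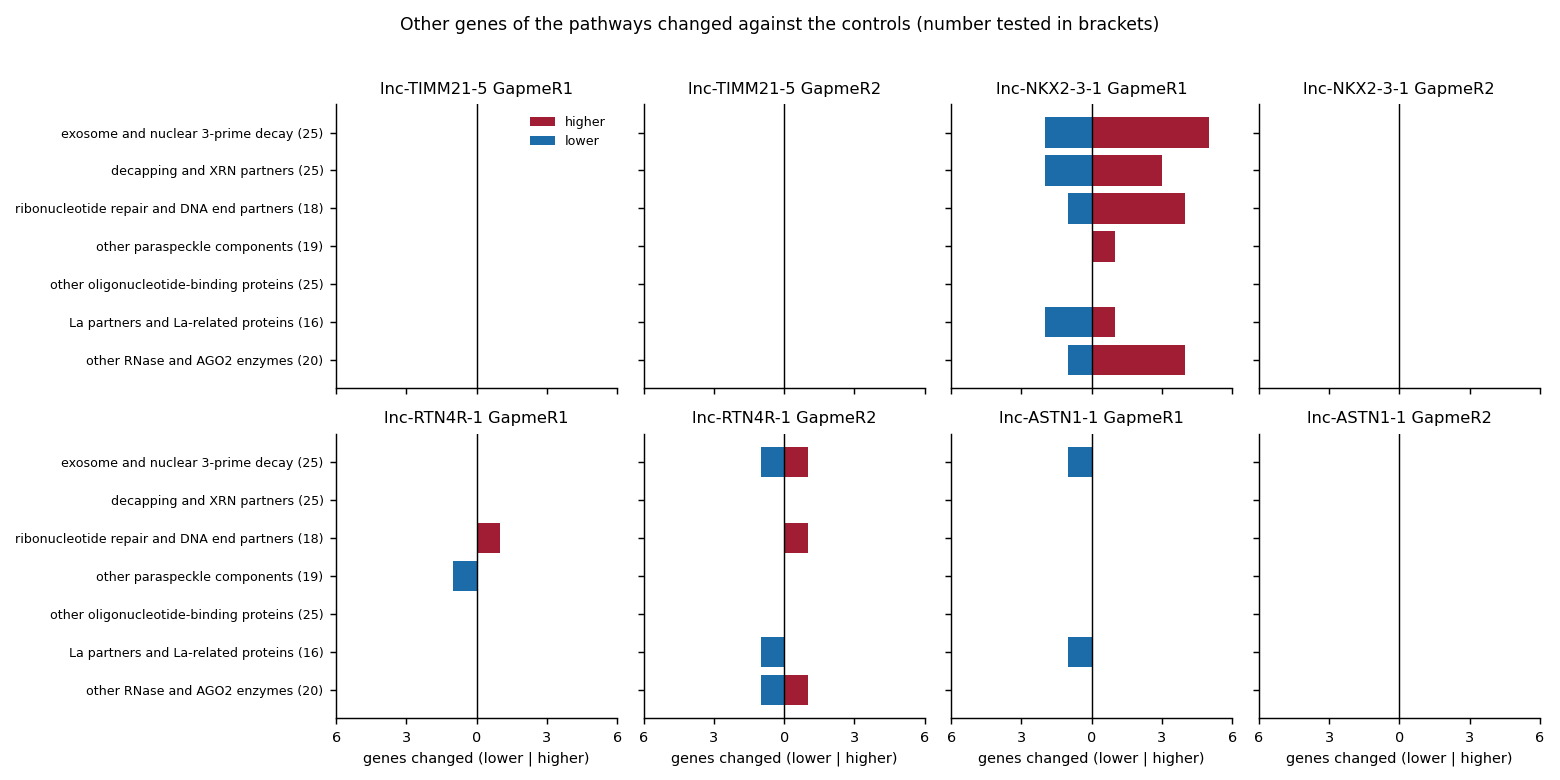
Number of genes of each list called lower (left, blue) or higher (right, red) against the controls for each GapmeR, with the number of genes tested in brackets. lnc-NKX2-3-1 GapmeR1 has 26 of 148 genes called, lnc-RTN4R-1 GapmeR2 6, lnc-RTN4R-1 GapmeR1 and lnc-ASTN1-1 GapmeR1 2 each, and the other 4 GapmeRs none.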

How the data were processed

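RNA sequencing counts were analysed for 27 samples in 10 groups. The authors aligned reads to hg38 with STAR, and the deposited values are its raw counts per gene in 3 columns per sample. The fourth column of each table, which held 95.2% to 95.4% of the 2 strand columns, was used. The labels describe ribodepleted, stranded total RNA, whereas the methods describe poly-A selection. The annotation release was not given in the sources used here. Gene names and positions came from GENCODE v44 (56434 of 60619 identifiers matched).

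Counts were tested with edgeR (4.0.16, R 4.3.3) quasi-likelihood F tests with TMM, filterByExpr (minimum count 10, minimum total 15, the 4 targets kept) and Benjamini-Hochberg adjustment over all genes. An adjusted p under 0.05 is a call. A comparison used the libraries of its 2 arms alone, without covariates, and tests over all groups used all 27. Standard errors came from the F statistics and 95% intervals from their degrees of freedom. Log2 CPM used a prior count of 2. P-values measure the spread between replicates, which the methods place on separate days. None of the 24 replicate pairs was as close as counting error alone would make it.

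GapmeR sequences (NTC from the entry called negative control A) were paired without gaps with the sense RNA of each gene. All 10 genes are named, and from each list up to 4 genes called with the most GapmeRs, some of which are not reported here. The genes, lists and tests were chosen with earlier results of these data known. The alternatives tried were another tool (DESeq2 1.42.0), RLE scaling, no filter, NTC only as controls, one fit of all samples, a replicate block, replicates 1 and 2 only, and leaving out each replicate. Replicates 1 and 2 only, for the tests over all groups, was chosen after seeing the data. The fits were tested on simulated data.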

Additional observations from a re-analysis of the deposited data

Results flagged for a closer look

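Of 50 sets of log2 CPM values examined (each of the 10 genes in the 5 controls and in both GapmeRs of each lncRNA), 3 held a sample far from the others by Dixon's criterion, and chance flags about 1 in 20 such sets. RNASEH2A was at 5.63 in NTC replicate 3, with the other controls between 5.96 and 6.08. RNASEH2A was at 5.47 in lnc-NKX2-3-1 GapmeR2 replicate 3, with the other 4 samples of both lnc-NKX2-3-1 GapmeRs between 5.89 and 6.02. NONO was at 9.34 in the same sample, with the others between 9.53 and 9.60. All 3 values are from replicate 3, in which RNASEH2A and NONO were lower over the 10 groups (-0.31 and -0.09).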

How the results depend on the processing

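Of the recomputed counts, 385 stayed within 1.5 times the count reported and 63 did not. The cause was not tested. The genes lowered by lnc-TIMM21-5 GapmeR1 (12) came to 35 with DESeq2, 33 with no low-count filter, 30 in one fit of all samples and 6 with NTC only as controls. For lnc-TIMM21-5 GapmeR2 (9) they were 17 with DESeq2 and 4 with NTC only, for lnc-NKX2-3-1 GapmeR2 (0) 5 with DESeq2, 6 with no filter and 3 in one fit, and for lnc-RTN4R-1 GapmeR1 (88) 133 in one fit and 46 with NTC only. For lnc-ASTN1-1 GapmeR1 (102) they were 164 with DESeq2, 175 with no filter, 162 in one fit and 63 with NTC only, and for lnc-ASTN1-1 GapmeR2 (2) 4 with DESeq2, 4 with no filter, 0 with NTC only and 1 with replicates 1 and 2 only. Leaving out each replicate gave 5 to 18 and 4 to 11 for lnc-TIMM21-5 GapmeR1 and GapmeR2, 716 to 1951 for lnc-NKX2-3-1 GapmeR1, 45 to 139 and 322 to 744 for lnc-RTN4R-1, and 61 to 136 and 0 to 3 for lnc-ASTN1-1. Of the 10 genes, the call for lnc-NKX2-3-1 GapmeR1 (1) was 0 with NTC only and 0 to 1 without each replicate. Between both lnc-NKX2-3-1 GapmeRs (0) it was 1 with DESeq2, 2 with no filter and 0 to 3 without each replicate, and among the 10 groups (0) it was 1 with DESeq2 and 1 with no filter.

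Samples with the same replicate number correlated in their deviations from the group means (mean 0.263 over 109 pairs, 94 above 0.1, lowest -0.035, against -0.130 over 218 pairs with different numbers), and 24 of 27 samples correlated best with their own number. The labels do not tie a number to a day, so the samples share only a number. With the replicate number as a block, 6 of the 10 genes were called for lnc-NKX2-3-1 GapmeR1 (36.4% of all genes), with SFPQ, RNASEH1, XRN2, PSPC1 and SSB higher and RNASEH2C lower (-0.25, adjusted p 0.00178), 1 for lnc-RTN4R-1 GapmeR2 (XRN1, lower, 22.4%), 5 between both lnc-NKX2-3-1 GapmeRs (41.8%), 5 between both lnc-RTN4R-1 GapmeRs (30.9%) and 6 among the 10 groups (48.6%). XRN1 between both lnc-NKX2-3-1 GapmeRs turned from -0.01 to 0.11. With the block the genes lowered were 205 and 44 for lnc-TIMM21-5 GapmeR1 and GapmeR2, 2772 and 194 with those against lnc-NKX2-3-1, 519 and 1562 with those against lnc-RTN4R-1, and 506 and 29 for lnc-ASTN1-1. Against these numbers and the levels of all samples, replicate 3 included, Spearman rho of RNASEH2A was 0.81 and r 0.57.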
